A study of Mus musculus with 12 samples.

Results

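The cytosolic ribosomal proteins are the proteins of the 40S and 60S subunits of the ribosome that works in the cytoplasm. They were taken here as the protein-coding genes of the deposited count table whose symbol starts with Rpl or Rps followed by a digit, together with Rpsa, Rplp0, Rplp1 and Rplp2, leaving out the S6 kinases (Rps6k) and every symbol with -ps. This gave 84 of the 17579 genes in the table, 50 of the large subunit, 33 of the small subunit and Rps19bp1, which encodes a protein that binds Rps19 and enters by its name alone. The annotation holds 86 such genes, and Rpl10l and Rpl39l are not among the rows of the table. The rule read only the symbol and the gene type, although genes with few counts had been removed from the table beforehand. Fau and Rack1 also encode ribosomal proteins, but such names fall outside the rule.

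RNA was sequenced from retina and striatum of male R6/1 mice and their wild-type (wt) littermates, 13 to 15 weeks old, on a C57Bl/6 background. R6/1 mice carry a transgene with the first exon of human huntingtin and an expanded CAG repeat, and the wt mice carry no transgene. Retinas and striata came from the same animals, and RNA of 3 to 4 mice was pooled for every library, so that replicates are pools of animals. There were 3 libraries in each of the 4 groups of tissue and genotype.

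Ribosomal proteins are made in near equal numbers for each subunit, assembled with ribosomal RNA in the nucleolus and carried to the cytoplasm. Their mRNAs are among the abundant mRNAs of most cells, and in mammals they begin with a C followed by a run of pyrimidines (a 5′ terminal oligopyrimidine, or TOP, tract) through which mTORC1, the growth-sensing kinase complex, controls their translation. Neurons send part of these mRNAs into axons and dendrites. The data below are mRNA amounts and hold no measure of translation or of ribosome number.

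The start of the mRNA, where the TOP tract lies, is shown for 5 of the 14 members with a run of at least 5 C or T there. Their values are discussed below or their role is specific, and Rps21 also has a RefSeq start without the run. Each window runs from 5 bases before the RefSeq start (GRCm38.p6) to 25 bases from it, 5′ to 3′, and the capitals mark the unbroken run of C and T from the start.

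Rpl15 (chr14:18270962-18270991, minus strand): gccttCTTCCTTTCCTCTggcggcagccat
Rps6 (chr4:86857343-86857372, minus strand): cgggcCTCTTTTTCgtgacgcctcccaggc
Rps15a (chr7:118116123-118116152, minus strand): gccatCTTCCCTCgccggtgagtgagtgtt
Rpl38 (chr11:114668575-114668604, plus strand): tcgttCTTTCCCCgttctcttcggttctca
Rps21 (chr2:180257374-180257403, plus strand): ccgccCTCCTgcccaatagtgctgcggagg

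The run was 13 bases long in Rpl15, 9 in Rps6, the ribosomal substrate of the S6 kinases, 8 in Rps15a and Rpl38, and 5 in Rps21. RefSeq promoter windows were matched to 64 of the 84 members, as 76 windows. A C at the start followed by C or T to a length of 5 or more was found in 14 of the 76 windows (18.4%), from 14 members, against 823 of 32851 windows of all genes (2.51%). RefSeq starts can lie upstream of the start in use, so a window without the run says only that these letters are not at that position. In the 300 bases from 250 before to 50 after the start, read on both strands, CCGGAAG was present in 34.2% of the members' windows and 8.86% of all windows. CTTTCC, which can overlap a TOP tract, was present in 38 of the members' 76 windows and in 26.6% of all windows, and TATAAA in 9.21% and 13.6%. On the gene strand alone, in the last 100 of these bases, the order for TATAAA was the other way. It was there in 5 of the members' windows (6.58%) and in 3.4% of all windows. In that part CCGGAAG was in 13.2% and 2.75%, and CTTTCC in 30.3% and 4.69%.

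The libraries held 14070445 to 22432431 estimated counts, and the defining markers of each labelled tissue were present in its libraries. Rod photoreceptor markers summed to 75210–83990 CPM (the count of a gene relative to the library's scaled total) in wt retina and 24950–33900 in R6/1 retina, and all 19 were lower in R6/1. Medium spiny neuron markers summed to 6328–8869 CPM in wt striatum and 2263–3976 in R6/1 striatum. Of 13 microglia markers, 9 were higher in R6/1 retina and none was lower. In bulk RNA, fewer cells of a type and less RNA per cell cannot be told apart, and the part of these shifts in the values of the ribosomal proteins was not tested. The library R6/1 retina 2 stood apart in 14 skeletal muscle genes, a list added after its values were seen, which summed to 703 CPM there and to between 3.36 and 41.5 CPM in the other 11 libraries. The library R6/1 retina 3 held 650 CPM of 9 lens genes, against at most 58.8 in any other library.

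The ribosomal protein mRNAs were a small and even share of each library. They took 0.927, 1.03 and 0.888% of the counts of the 3 wt retina libraries and 1.24, 1.03 and 1.10% of those of R6/1 retina. In wt striatum they took 0.987, 1.09 and 0.903%, and in R6/1 striatum 1.04, 1.01 and 0.951%. In this share the genotypes overlapped in the striatum, whereas in the retina the lowest R6/1 library lay just above the highest wt library. In summed CPM, which uses scaled totals, they overlapped in the retina too, with R6/1 retina 2 at 9486 and wt retina at 9301 to 10570. Their median level per kilobase of transcript was 153 CPM in wt retina, 160 in R6/1 retina, 172 in wt striatum and 156 in R6/1 striatum. Per kilobase, Rps15 of the small subunit stood highest on average over the 12 libraries, at 375 ± 27.3 CPM in wt retina and 419 ± 44.8 in wt striatum (SD, n = 3). Rpl23a at the rim of the exit tunnel, Rpl3 near the peptidyl transferase centre and Rpl7 were at 335, 310 and 366 CPM per kilobase in wt retina, with Rpl7 above both others there and below both in wt striatum (248 CPM per kilobase). At the low end, Rpl12 of the stalk base, with 111 to 193 counts per library, measured 7.49 CPM per kilobase in wt retina and 6.28 in wt striatum. These values rest on the length of 1 annotated transcript per member, 1242 bases for Rpl12, and another transcript would change them. In CPM without division by length, Rpl3 was highest, with a mean of 458 over the 12 libraries, and its muscle paralogue Rpl3l lowest, with 0.419.

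Within a library the members moved together. Relative to the wt mean of the tissue, the median member of R6/1 retina 1 lay 0.25 higher on the log2 scale and 82 of 84 members were above that mean. The median member of R6/1 retina 2 lay at -0.05, with 32 members above, and that of R6/1 retina 3 at 0.08, with 61 above. The wt retina libraries were at -0.03, 0.12 and -0.09, so wt retina 2 lay above 2 of the 3 R6/1 libraries. In the striatum the wt libraries were at 0.02, 0.10 and -0.12 and the R6/1 libraries at -0.03, -0.12 and -0.18. These shifts of whole libraries spread over 0.13 (SD) in the retina and 0.09 in the striatum on the log2 scale. The 84 members are therefore not 84 independent readings of a genotype.

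**Figure D1:**
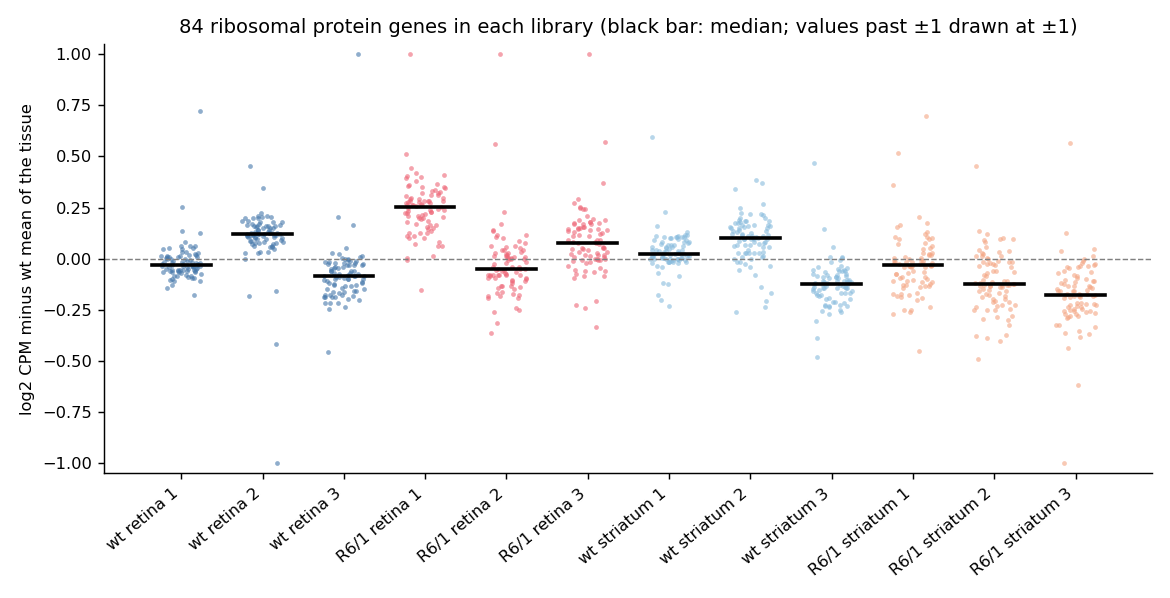
Level of each of the 84 ribosomal protein mRNAs in each of the 12 libraries, as log2 CPM minus the mean of the wt libraries of the same tissue; points are genes, black bars are the median of a library, and values past 1 in either direction are drawn at 1. R6/1 retina 1 has the highest median (0.25), R6/1 striatum 3 the lowest (-0.18), and the libraries of a genotype differ by as much as the genotypes do.

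The first comparison asked how the ribosomal protein mRNAs differed between R6/1 and wt retina. With edgeR's quasi-likelihood test and Benjamini-Hochberg adjustment over all genes tested, 10 of the 84 members were higher in R6/1 retina (11.9%) and none was lower. Over all 16582 genes tested, 9.58% were called higher and 12.7% lower, so the share called higher was near that of all genes. The members' median log2 difference was 0.13, with 75 positive and 9 negative, against 0.01 over all genes tested. It was no larger than the SD of single libraries given above, which is not the error of a difference between means of 3 libraries. Among other genes with transcripts of up to 600 bases, the 98 with a mean over 20 CPM had a median of 0.09. All 545 such genes tested had a median of 0.01. At an unadjusted p under 0.05, 23 members were higher and none lower, against 2690 higher and 2991 lower of the 16582 genes tested. The 10 called after adjustment were 8 of 50 in the large subunit and 2 of 33 in the small subunit, and included Rpl13, Rpl36al, Rps3, Rpl15, Rpl7l1, Rpl19, Rpl6, Rplp0 and Rpl11.

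Rpl13, a large-subunit protein (chr8:123102350-123105244, plus strand, GRCm38), had the smallest p. Its CPM was 146, 171 and 156 in wt retina and 207, 173 and 187 in R6/1 retina, so the lowest R6/1 library lay just above the highest wt library. The log2 difference was 0.29 ± 0.08 (SE, adjusted p = 0.0111). Rpl36al, an expressed copy of Rpl36a (chr12:69182731-69184083, minus strand), had 23.9, 25.8 and 26.2 CPM in wt and 31.2, 29.6 and 30.5 in R6/1 retina. The genotypes were well separated for this gene, with a log2 difference of 0.30 ± 0.08 (adjusted p = 0.0115).

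Rps3, which lines the entry of the mRNA channel, had 185, 205 and 179 CPM in wt and 251, 208 and 216 in R6/1 retina, a log2 difference of 0.28 ± 0.08 (adjusted p = 0.0171). Rpl15 had 152, 168 and 156 CPM in wt and 198, 171 and 179 in R6/1 retina, a difference of 0.23 (adjusted p = 0.0201). In Rps3 and Rpl15 the library R6/1 retina 2 exceeded the highest wt library by only a few CPM. Rpl7l1, a paralogue of Rpl7, was more even, with 35.6, 38.7 and 36.9 CPM in wt and 45.4, 41.7 and 41.0 in R6/1 retina (log2 difference 0.24, adjusted p = 0.0246). Rplp0, the stalk protein that carries the P1 and P2 dimers (chr5:115559467-115563727, plus strand), had 112, 128 and 120 CPM in wt and 144, 130 and 133 in R6/1 retina, a difference of 0.20 ± 0.07 (adjusted p = 0.0354). Rpl11, which with Rpl5 and the 5S rRNA forms the particle that can bind Mdm2, had 100.1, 105 and 93.9 CPM in wt and 136, 106 and 111 in R6/1 retina (log2 difference 0.27, adjusted p = 0.0490).

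In Rpl19, which reaches between the subunits, and Rpl6 the genotypes overlapped, since wt retina 2 (184 and 244 CPM) exceeded R6/1 retina 2 (178 and 241 CPM). Their log2 differences were 0.22 (adjusted p = 0.0347) and 0.23 (adjusted p = 0.0349). Just outside the threshold were Rpl21 at 0.22 (adjusted p = 0.0521) and Rpl37a at 0.25 (adjusted p = 0.0616). Without overlap of the libraries, 9 members were higher in R6/1 and none lower, against 15.3% and 23.0% of all genes. These 9 were those called other than Rpl19 and Rpl6, with Rpl5 added, which had a log2 difference of 0.18 (adjusted p = 0.0841).

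**Figure D2:**
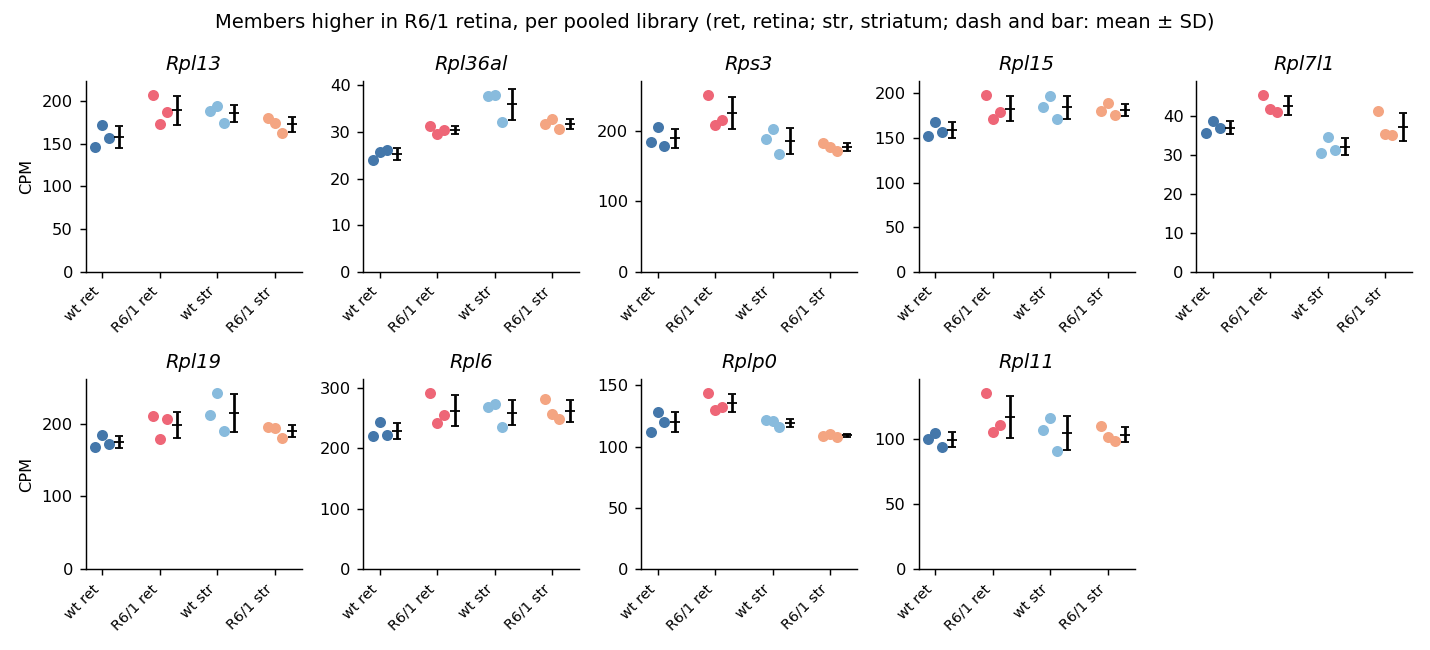
CPM in each library of 9 of the 10 members called higher in R6/1 retina; points are libraries (3 per genotype in retina and in striatum), dash and bar are mean ± SD, and each axis starts at 0. The R6/1 retina libraries lie above the wt retina libraries, mostly by a narrow margin, except in Rpl19 and Rpl6, where they overlap.

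By role, called members were spread thinly. In the stalk 1 of 4 was called (Rplp0), whereas Rpl12 at the stalk base stood at -0.17 (adjusted p = 0.417) and Rplp1 at -0.06. As 75 of the 84 members were positive, most roles were too. All 8 members of the exit tunnel and its rim had a positive difference, with a median of 0.17 and 1 call (Rpl19). So did all 5 of mRNA entry and decoding, with a median of 0.19 and 1 call (Rps3). All 5 of the head and beak, all 3 of the subunit core and peptidyl transferase region and both of the 5S particle were also positive. In the stalk 2 of 4 were positive, and at the mRNA exit 2 of 3. Of the particle with 5S rRNA 1 of 2 was called (Rpl11). No member listed for the head and beak, the mRNA exit, or the subunit core and peptidyl transferase region passed the test. The 14 members whose start window holds the run of C and T had a median of 0.09 with 1 call, and the 50 matched members without it a median of 0.13 with 8 calls.

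The count of calls rested on single libraries. It was 0 without wt retina 1, where 5.84% of all genes were higher, and 2 without wt retina 3, where 6.71% were higher. Without R6/1 retina 1 it was 2 higher and 1 lower, against 7.62% and 11.1% of all genes. It rose to 18 (21.4% of members) without wt retina 2, against 6.85% of all genes, and to 25 of 83 tested (30.1%) without R6/1 retina 2, the library with the skeletal muscle genes, against 9.19% of all genes. The members' median log2 difference stayed above 0 in all 6 of these fits, from 0.04 to 0.20. With library totals as the scale instead of TMM, which moved the median of all genes from 0.01 to 0.13, 39 members were higher with a median of 0.24, and 23.4% of all genes were higher, so the members lay above the median gene in both scalings. DESeq2 called 12 members higher (7.65% of all genes), limma-voom 6 (8.37%) and the fit with a replicate block 10 (9.81%).

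In the striatum the ribosomal protein mRNAs leaned the other way, and none passed the test. Of 84 members 0 were called higher and 0 lower (edgeR's quasi-likelihood test), against 0.132% of all 16728 genes tested called higher and 1.32% called lower. The median log2 difference was -0.11, with 12 positive and 72 negative, against 0.01 over all genes tested. In size it lay just above the SD of single striatum libraries (0.09). Among other genes with transcripts of up to 600 bases, the 94 with a mean over 20 CPM had a median of -0.13. All 496 such genes tested had a median of -0.04. At an unadjusted p under 0.05, 13 members were lower and none higher, against 1923 lower and 1395 higher of the 16728 genes tested. When single libraries were left out the median stayed below 0, between -0.07 without wt striatum 2 and -0.19 without wt striatum 3. The members lower at an unadjusted p under 0.05 ranged from 4 without R6/1 striatum 3 to 35 without wt striatum 3. In these 2 fits 1539 of 16595 and 1434 of 16594 genes were lower. DESeq2 called 1 lower (Rpsa; 4.81% of all genes) and limma-voom 0 (1.48%). With library totals the members' median was 0.00, while that of all genes rose to 0.12, so the members lay below the median gene in both scalings.

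Rpsa, the laminin receptor protein of the 40S at the mRNA exit, was the member nearest to the threshold. Its CPM was 343, 359 and 325 in wt striatum and 287, 287 and 266 in R6/1 striatum, with every R6/1 library below every wt library. The log2 difference was -0.29 ± 0.07 (adjusted p = 0.0863). Rpl37, a small zinc-binding protein of the 60S, had 78.6, 80.4 and 74.97 CPM in wt and 68.5, 65.5 and 64.1 in R6/1 striatum, a difference of -0.24 ± 0.06 (adjusted p = 0.0958). Rps25, which takes part in initiation at viral and cellular internal entry sites, had 133, 128 and 116 CPM in wt and 111, 109 and 98.3 in R6/1 striatum (adjusted p = 0.132). Rps19, the gene mutated most often in Diamond-Blackfan anaemia, had 54.7, 59.2 and 50.8 CPM in wt and 48.2, 46.1 and 44.9 in R6/1 striatum (adjusted p = 0.131). In all 4 genes the genotypes did not overlap. This held for 9 members in the lower direction and for 1, Rpl7l1, in the higher direction, against 12.7% and 12.8% of all genes.

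Same-numbered wt and R6/1 striatum pools deviated together, as did wt striatum 1 and R6/1 striatum 3. In a fit with the pool number as a replicate block 6 members were lower in R6/1 striatum, where 7.11% of all genes were lower. Rpsa had an adjusted p of 0.00953 in this fit, Rps25 of 0.0201, Rpl37 of 0.0300, Rpl27a of 0.0394, Rpl38 of 0.0426 and Rps19 of 0.0481. Their log2 differences lay between -0.29 and -0.21. In the fit without the block, all 8 members of the exit tunnel and its rim had a negative difference, with a median of -0.16. So did all 3 of the mRNA exit and 72 of the 84 members. Rpl7l1 was among the 12 members with a positive difference, with 30.5, 34.7 and 31.2 CPM in wt and 41.2, 35.3 and 35.1 in R6/1 striatum (log2 difference 0.21, adjusted p = 0.256).

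The next comparison was of the genotype effect itself between the tissues. The difference (retina minus striatum) was called for 2 members, Rpl36al and Rplp0, both in the direction of a higher effect in the retina, and for 0 in the other direction, while 3.38% of all 15731 genes tested were called in the first direction and 4.86% in the second. The members' median difference of effects was 0.23, with 78 positive and 6 negative, against -0.02 over all genes tested. Among other genes with transcripts of up to 600 bases, the 94 with a mean over 20 CPM had a median of 0.18. All 400 such genes tested had a median of 0.07. For Rpl36al the difference was 0.45 ± 0.11 (adjusted p = 0.0225). Its CPM rose in the retina, as given above, and was 37.8, 37.9 and 32.2 in wt against 31.7, 32.8 and 30.6 in R6/1 striatum. For Rplp0 the difference was 0.30 ± 0.09 (adjusted p = 0.0457), with 122, 121 and 116 CPM in wt striatum and 109, 111 and 108 in R6/1 striatum. With the replicate block, which here joined retina and striatum pools of the same genotype and number, neither passed (adjusted p = 0.0513 and 0.0759), and Rpl13, Rpl29 and Rpl37a passed in their place (3.09% of all genes). DESeq2 called 4 members, these 2 with Rpl13 and Rpl37a (4.27% of all genes). The count ranged from 0 to 4 when single libraries were left out. It was 0 without wt retina 1, wt striatum 1 or R6/1 striatum 3 and 4 without R6/1 retina 2 or wt striatum 3. It was 1 without wt retina 3, R6/1 retina 1, R6/1 retina 3 or R6/1 striatum 2. Over all genes, these fits called from 2.06% (without wt retina 1) to 5.76% (without wt striatum 2) in the same direction.

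**Figure D3:**
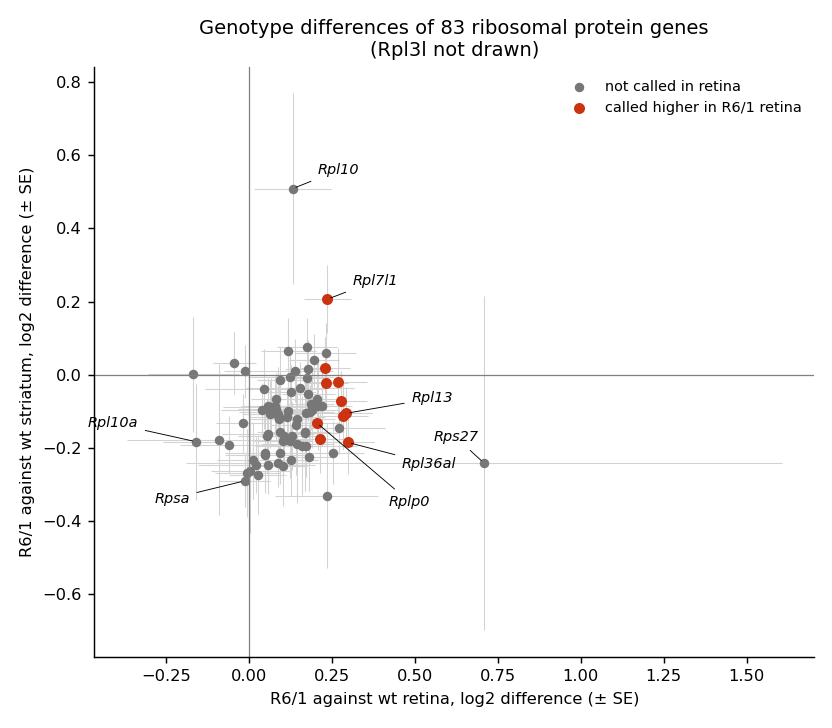
Log2 difference between R6/1 and wt in the retina (horizontal) against that in the striatum (vertical) for 83 members, with bars of ± 1 SE; red points are the 10 members called in the retina, and Rpl3l is not drawn. Most points lie right of 0 and below 0, and Rpl7l1 is the red point with the highest striatal value (0.21).

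Between wt retina and wt striatum the ribosomal protein mRNAs were not a uniform set. In wt retina 9 members were higher and 30 lower than in wt striatum, that is 10.7% and 35.7% of the members, where 37.8% and 38.5% of all 16864 genes tested were called. The median log2 difference was -0.16, with 23 positive and 61 negative. Without wt retina 2, 5 members were higher and the count lower stayed between the 23 and 38 found when any wt library was left out. Without overlap, 12 members were higher and 26 lower, against 39.4% and 39.7% of all genes.

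Rpl10a, the protein of the mobile L1 stalk (chr17:28328471-28331033, plus strand), differed most among the members higher in retina. It had 95.0, 88.8 and 78.6 CPM in wt retina and 28.1, 37.8 and 32.0 in wt striatum, a log2 difference of 1.42 ± 0.11 (adjusted p = 6.41e-07). With the counts of its processed pseudogene added, the difference was 1.13 (adjusted p = 2.72e-08). Rpl22, which also binds RNAs outside the ribosome, had 112, 117 and 115 CPM in wt retina and 74.8, 83.4 and 68.1 in wt striatum (log2 difference 0.60, adjusted p = 2.80e-05). Rpl7 had 305, 331 and 284 CPM in wt retina and 211, 220 and 192 in wt striatum (log2 difference 0.56, adjusted p = 5.52e-05). Rpl5 (0.40), Rps15a (0.38), Rps24 (0.30), Rpl8 (0.22) and Rpl7l1 (0.20) were also higher.

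Among the members lower in wt retina, Rps21, a small protein of the 40S, had 53.9, 57.7 and 48.1 CPM in wt retina and 93.7, 113 and 80.8 in wt striatum. The groups were far apart, with a log2 difference of -0.85 (adjusted p = 0.000120). Rpl37 and Rpl27a differed by -0.74 and -0.66 (adjusted p = 6.49e-06 and 2.62e-05). Rpl41, the shortest ribosomal protein, had 75.8, 88.6 and 74.0 CPM in wt retina and 134, 125 and 115 in wt striatum, and Rps29 had 68.3, 67.8 and 58.3 CPM against 101, 113 and 89.8. Both differed by -0.65 on the log2 scale. Rps2 of the mRNA entry and Rplp1 of the stalk both differed by -0.61 (adjusted p = 1.78e-05 and 6.11e-05). In the exit tunnel and its rim 5 of 8 members were lower and none higher, where 35.7% of all members and 38.5% of all genes were lower. In mRNA entry and decoding 3 of 5 were lower, and at the mRNA exit 2 of 3, with none higher in either.

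**Figure D4:**
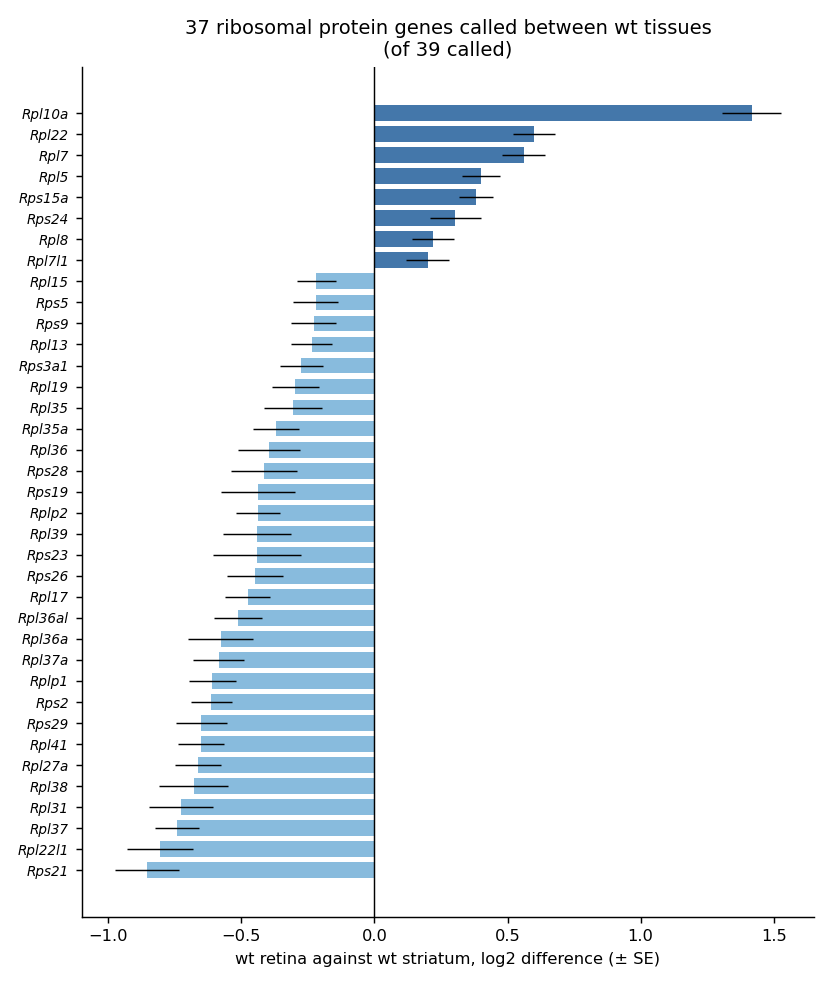
Log2 difference between wt retina and wt striatum for 37 of the 39 members called, with bars of ± 1 SE; values above 0 are higher in retina, and Rpl3l, with few counts, is not among those drawn. Rpl10a stands alone at 1.42, and the lower members run down to Rps21 at -0.85.

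Lower members were nearly as many among the longer transcripts as among the shorter ones. The 42 members of up to 731.5 bases had a median log2 difference of -0.19, with 3 higher and 16 lower, and the 42 longer members a median of -0.08, with 6 higher and 14 lower. Across the 84 members the difference and log2 length had a Pearson's r of 0.175 and a Spearman's rho of 0.328, given as a description over genes that share libraries. Among the other genes of up to 600 bases, the 98 with a mean over 20 CPM had a median of -0.30, while all 519 tested had a median of 0.17. The part of transcript length in the members' values was not tested.

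Several ribosomal proteins are encoded by more than 1 gene, and the balance within such a pair differed between tissues only in part. Rpl22l1, the paralogue of Rpl22, had 20.3, 23.5 and 17.96 CPM in wt retina and 41.7, 32.3 and 33.3 in wt striatum, a log2 difference of -0.80 (adjusted p = 0.000131), opposite in sign to that of Rpl22. It made up 15.2 ± 1.58% of the pair's summed CPM in wt retina and 32.2 ± 3.98% in wt striatum (SD, n = 3). In R6/1 mice the shares were 15.9 ± 2.41% and 31.1 ± 1.75%, within 1 SD of wt in both tissues. Rpl36al and Rpl36a were nearly equal in CPM, with Rpl36al at 50.03% of the pair in wt and 53.8% in R6/1 retina, and 49.0% in wt and 47.7% in R6/1 striatum. Rpl7l1 made up 10.8% of its pair with Rpl7 in wt and 11.2% in R6/1 retina, and 13.4% in wt and 15.6% in R6/1 striatum. No stretch of 31 bases is shared within these 3 pairs.

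Rps27 and Rps27rt are near-identical in sequence, and how the reads were divided between them is uncertain. Their RefSeq starts show it, with the shared 24 bases in capitals:

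Rps27 (chr3:90213624-90213653, minus strand): tcgctcCTTTCCGGCGGTGACGACCTCCCT
Rps27rt (chr9:114982715-114982744, minus strand): ccttgCTTTCCGGCGGTGACGACCTCCCTa

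Of the 344 stretches of 31 bases in Rps27rt, 315 (91.6%) also occur in Rps27. Rps27 had 183, 21 and 367 counts in wt retina and 315, 213 and 506 in R6/1 retina, and Rps27rt had 823, 1027 and 711 in wt retina and 1097, 951 and 846 in R6/1 retina. Where Rps27 was lowest (wt retina 2), Rps27rt was high for its group, and neither was called between genotypes in either tissue.

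Rpl10, which joins the 60S late and completes the peptidyl transferase region, gave a different result with its copy. Rpl10-ps3, annotated as protein-coding but left out by the rule, shares 710 of its 738 stretches of 31 bases (96.2%) with Rpl10 and had a mean of 2180 counts per library, against 876 for Rpl10. Rpl10 alone had a log2 difference of 0.13 in the retina (adjusted p = 0.472), 0.51 in the striatum (adjusted p = 0.345) and -0.11 between wt tissues (adjusted p = 0.750). Summed with the copies named after it, these became 0.36 (adjusted p = 0.00330), 0.01 and -0.77 (adjusted p = 1.03e-05). Rpl10-ps3 itself had 73.5, 94.7 and 66.9 CPM in wt retina and 113, 104 and 102 in R6/1 retina, a log2 difference of 0.48 (adjusted p = 0.0267). In all, 37 pseudogenes in the table are named after 29 members. Adding their counts raised the members called higher in R6/1 retina from 10 to 11, by Rpl10.

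**Figure D5:**
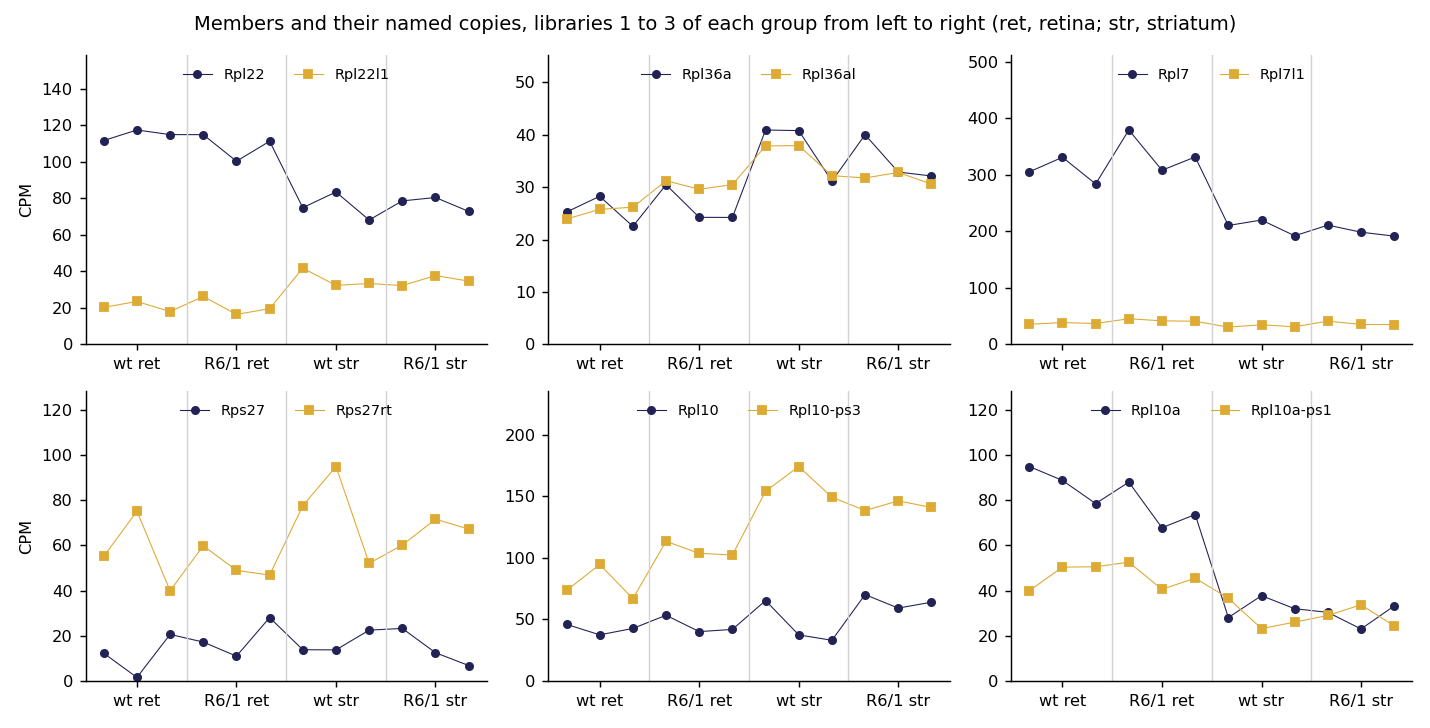
CPM in each of the 12 libraries of 6 ribosomal protein genes and a paralogue or near-identical copy of each; lines join libraries, retina first and wt before R6/1 in each tissue, only to guide the eye. Rpl22 and Rpl22l1 move in opposite directions between tissues, and Rpl10-ps3 lies above Rpl10 in every library.

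Rpl3l, the paralogue of Rpl3 that replaces it in striated muscle, was at the limit of detection except in 1 library. It had 1, 0 and 1 counts in wt retina, 1, 62 and 2 in R6/1 retina, 5, 4 and 5 in wt striatum and 5, 5 and 4 in R6/1 striatum. The 62 counts were in R6/1 retina 2, where Ckm, the muscle creatine kinase, had 1166 counts against 0 to 23 in the other libraries. The log2 difference in the retina was 4.53 ± 2.28 (adjusted p = 0.256). Rpl3l, which shares no stretch of 31 bases with Rpl3, was lower in wt retina than in wt striatum by the test (adjusted p = 0.0210), on 2 and 14 counts in all. Rps27l, a p53-responsive paralogue of Rps27, lay between 3.63 and 7.31 CPM in all libraries and was called in no comparison.

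Genes that work with the ribosomal proteins were counted in the same way, and their counts stand beside shares over all genes of 9.58% higher and 12.7% lower in R6/1 retina, 0.132% and 1.32% in R6/1 striatum, 3.38% and 4.86% for the difference between tissues, and 37.8% and 38.5% between wt tissues. Of the 3 ribosomal proteins named otherwise, none was called between genotypes, and between wt tissues Rack1, the scaffold on the 40S head, was higher in retina (0.54, adjusted p = 5.21e-05). Of 19 elongation factors and other TOP mRNAs, 6 were higher in R6/1 retina and none lower, with a median of 0.12. Among them were Eef1b2 (0.33, adjusted p = 0.00426) and Eef1a1 (0.32, adjusted p = 0.00781), subunits of the factor that brings aminoacyl-tRNA, and Npm1, a nucleolar chaperone (0.21, adjusted p = 0.0243). In the striatum none of the 19 was called, and with the replicate block Tpt1 and Nap1l1 were lower (-0.30 and -0.23). The effect differed between tissues for 2 of the 19, Eef1b2 (0.40, adjusted p = 0.0243) and Nap1l1 (0.34, adjusted p = 0.0291).

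Of 29 initiation factors, 3 were higher in R6/1 retina and none lower, among them Eif3b (0.23, adjusted p = 0.0196), and none was called in the striatum. Of 71 genes for ribosome assembly and rRNA synthesis, 8 were higher in R6/1 retina and 2 lower, with Riok1, a kinase of late 40S maturation, at 0.33 (adjusted p = 0.00215). In R6/1 striatum 1 of the 71 was lower, Ubtf, the factor that opens rRNA genes for polymerase I, at -0.42 (adjusted p = 0.0235). The genotype effect on Ubtf differed between tissues by 0.51 (adjusted p = 0.00187). Between wt tissues 42 of the 71 were higher in retina and 14 lower, with a median of 0.30, while the ribosomal proteins had a median of -0.16.

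Of 13 chaperones and importers of ribosomal proteins, 1 was higher in R6/1 retina (Pdcd2l, 0.41) and 2 lower (Tnpo1, -0.23, and Ipo9, -0.19), and none was called in the striatum. Of 30 genes of mTORC1 signalling, Lamtor5 (0.25, adjusted p = 0.0210) and Akt1s1 (0.31, adjusted p = 0.0484) were higher in R6/1 retina. In R6/1 striatum Deptor, an mTOR inhibitor, was lower (-0.46, adjusted p = 0.0480). Of 17 genes of ribosome quality control and the p53 response to free ribosomal proteins, Ascc3 was higher in R6/1 retina (0.20, adjusted p = 0.0470) and none was called in the striatum. For comparison, 6 of 78 mitochondrial ribosomal proteins were higher and 2 lower in R6/1 retina, with a median of 0.12, and none was called in the striatum, with a median of -0.03.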

How the data were processed

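Poly(A) RNA of 12 pools was sequenced as stranded libraries. The authors used CASAVA for base calling, Trimmomatic for trimming and Salmon for quantification on GRCm38/mm10 (versions not given in the sources used here). They deposited estimated counts per gene, as whole numbers without normalization, from which genes with few counts had been removed. How Salmon divides reads between near-identical copies affects those genes.

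Groups followed the sample labels. The members and gene lists were chosen with earlier results of these data known. Genes with at least 10 counts over the compared libraries were tested with edgeR 4.0.16 (TMM, robust quasi-likelihood F-test, Benjamini-Hochberg over all genes tested, threshold 0.05) in R 4.3.3. CPM used TMM factors over 12 libraries. Transcript lengths came from GENCODE, start sequences from RefSeq (GRCm38.p6). Named members were up to 10 called per direction and comparison with the smallest p, the paralogues with their partners and the highest and lowest member, with up to 4 genes per list. Rpl10, Rps27rt, Rpl12, Rpl5, Rpl21, Rpl37a, Rpsa, Rps19, Rps25 and Ckm were named after their values were seen, as were the per-kilobase examples. The alternative tools were limma-voom (limma 3.58.1) and DESeq2 1.42.0, and the alternative settings other scalings and filters, pseudogene counts added, a replicate block, a single fit of 12 libraries and leaving out each library. Some genes that the rule names are not reported here by name. The code was tested on simulated data. Wt and R6/1 striatum pools of the same number deviated together (correlations of deviations 0.274, 0.329 and 0.257 over 10445 genes). Among striatum pools of unlike number, wt 1 and R6/1 3 also did (0.240), and the others ran from -0.389 to -0.0421. Pool numbers did not pair the retina libraries (0.124, -0.0943 and 0.0511) or the wt tissues (-0.0261, 0.0195 and 0.000763). R6/1 retina and R6/1 striatum pools of the same number deviated together (0.242, 0.119 and 0.179).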

Additional observations from a re-analysis of the deposited data

Results flagged for a closer look

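The genotype effect differed between retina and striatum for 2 members, by the test of that difference itself. For Rpl36al the effect in the retina exceeded that in the striatum by 0.45 on the log2 scale (adjusted p = 0.0225). This call was kept in 9 of 12 fits that each left out 1 library and was lost without wt retina 1, wt striatum 1 or R6/1 striatum 3. For Rplp0 it exceeded that in the striatum by 0.30 (adjusted p = 0.0457), and this call was kept in 2 of the 12 fits. With the replicate block neither call was kept (adjusted p = 0.0513 for Rpl36al and 0.0759 for Rplp0). DESeq2 gave adjusted p of 0.00994 and 0.0152, and limma-voom 0.0275 and 0.0477.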

How the results depend on the processing

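Library totals moved the retinal count most, with 39 members higher in R6/1 retina against 10 with TMM. In edgeR, DESeq2's scaling gave 11 (9.79% of all genes), and TMM computed without the members gave 10 (9.62%). The tools DESeq2 and limma-voom called 12 and 6, and a single fit of 12 libraries 2 (Rpl13 and Rpl36al). The 10 were all among the 39. Leaving out 1 library gave 0 to 25 higher and 0 to 1 lower. In the striatum the count lower was 0, 1 with DESeq2, 1 in the single fit (Rpsa in both) and 6 with the replicate block, and the median with library totals was -0.0037. For the difference between tissues DESeq2 called 4 members and the replicate block 3, and leaving out libraries gave 0 to 4 in the first direction and 0 to 1 in the second. Between wt tissues leaving out libraries gave 5 (without wt retina 2) to 13 higher and 23 to 38 lower. Outside mitochondrial genes the members' share of counts was 1.03% in wt retina, 1.24% in R6/1 retina, 1.14% in wt striatum and 1.13% in R6/1 striatum.

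With the replicate block 10 members were higher in R6/1 retina, 9 of them shared with the fit without it; Rpl19 was lost (adjusted p = 0.0520) and Rpl3l gained. Between wt tissues it gave 10 higher and 36 lower (37.9% and 38.3% of all genes).

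Signs turned by more than the SE as follows, and by less than it in 69 further cases of a named member under 1 setting, 58 of them with a library left out, in no case past the threshold. With library totals Rpl22 became 0.069 and Rps15a 0.10 in the retina, and in the striatum Rpl13 0.0055, Rps3 0.038, Rpl15 0.088, Rpl11 0.089, Rpl7 0.058, Rpl8 0.024, Rps2 0.032 and Rpl22l1 0.077. When single libraries were left out, the retinal difference ranged from -0.17 to 0.19 in Rpl22l1, from -0.035 to 0.17 in Rpl36a and from -0.019 to 0.16 in Rpl37, each lowest without R6/1 retina 1. The striatal difference ranged from -0.10 to 0.092 in Rpl22l1 (highest without wt striatum 1), from -0.25 to 0.0024 in Rps21 and from -0.38 to 0.037 in Rps27rt (both highest without wt striatum 2). The cause was not tested. Depth limited Rpl3l most, at 0 to 5 counts in 11 of 12 libraries.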
